A study of Mus musculus with 9 samples.

Results

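The 39 protein-coding Hox genes of the mouse were followed in 9 samples of spinal cord RNA. They were chosen by symbol alone, as genes named Hoxa, Hoxb, Hoxc or Hoxd with a number, and all 39 stood in the table of 52550 genes. The samples made up 3 groups of 3 from adult female C57BL/6N mice. Each is called a mouse below, though the sources used here do not state that each came from a separate animal. Every mouse had a laminectomy at a lower thoracic level. The Sham mice had no further injury. The SCI mice received a contusion of the cord and intraperitoneal DMSO, and the FIPI mice received the same contusion and daily intraperitoneal FIPI, an inhibitor of phospholipase D (PLD) prepared from a DMSO stock. A length of cord around the injury site was taken on day 7 and its polyadenylated RNA was sequenced. The age in weeks is not given in the sources used here, and no injection is described for the Sham mice.

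Hox genes code for homeodomain transcription factors that give cells of the embryo their position along the body axis. They lie in clusters, and genes with the same number in different clusters are paralogs, copies of a common ancestor. Genes of low number start at the hindbrain, those of middle number at the brachial and thoracic cord, and those of high number at the lumbar and sacral cord. Neurons and glia of the adult cord keep part of this pattern, so the numbers that are on or off reflect where along the cord the tissue was taken.

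Totals per mouse lay between 20806000 and 24582377 counts, and all Hox genes together took 14811 to 26493 counts a mouse. CPM below is a count scaled to a library of fixed size, with TMM factors for composition. Of the 39 genes, 31 had enough counts to be tested, among 18699 genes tested in all. The 8 others were Hoxb1, Hoxd11 and every gene of paralogs 12 and 13. Hoxd11 had 1 to 10 counts a mouse, Hoxb1 at most 4, Hoxb13 at most 4, Hoxc13 at most 2, and Hoxa13 and Hoxd13 at most 1. Hoxc12 and Hoxd12 had 0 counts in all 9 mice, which allows a level of up to 0.0143 CPM (3 counts of the 209746301 in all mice, counting error only). Genes of the forebrain and midbrain, a check of the tissue label, summed to between 0.335 and 1.04 CPM over 8 genes, and 1 of the 8 (Dmbx1) had enough counts to be tested.

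In the Sham cord the highest level at each paralog number climbed to a peak at 8, with a dip at 7, and dropped steeply after 10. Levels between genes are given in FPKM, counts scaled to the library total and to the exonic length of the gene in kilobases. Hoxb8, whose mouse mutants groom to excess, was the highest with 110 ± 3.65 FPKM (SD, n = 3), followed by Hoxb9 with 43.5 ± 3.15 and Hoxb6 with 37.0 ± 0.794, and none of these overlapped the next in order. Hoxa7 with 26.4 ± 0.452 and Hoxc10 with 25.4 ± 1.27 overlapped each other.

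The highest member at each of the other paralog numbers placed the borders of the pattern. At paralog 1, Hoxd1 had 1.45 ± 0.566 FPKM, and at paralog 2, Hoxa2 had 1.65 ± 0.206. Hoxb3 reached 3.36 ± 0.166, Hoxc4 8.44 ± 1.03 and Hoxa5 22.3 ± 1.48. Past paralog 10 the highest was Hoxa11 with 0.207 ± 0.294, then Hoxb13 with 0.0487 ± 0.035. So each of paralogs 5 to 10 had a member at 22.3 FPKM or more, and no gene of paralogs 11 to 13 reached 1 FPKM in any of the 9 mice. Exonic overlap makes some of these levels uncertain. It covers 62.8% of the exonic length of Hoxd3, 52.9% of Hoxb3, 52.3% of Hoxd4, 35% of Hoxa11, 27.3% of Hoxb2 and 27.1% of Hoxa3, and the counting's use of strand is not given in the sources used here.

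**Figure D1:**
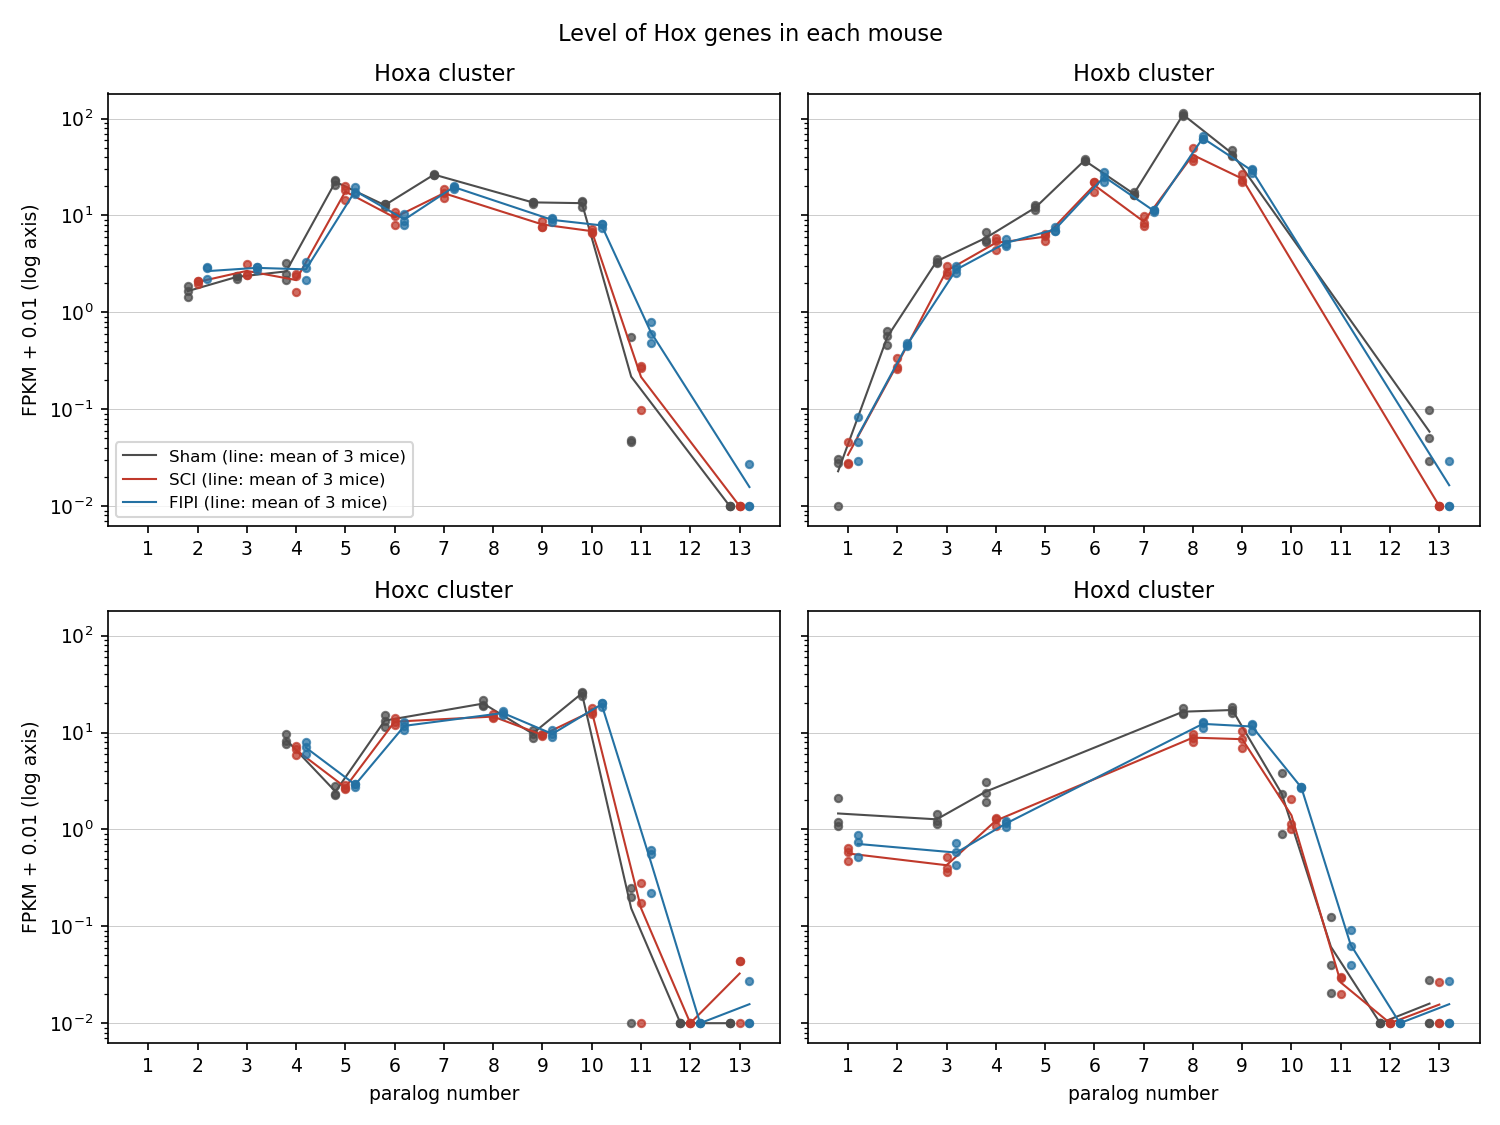
Level of the Hox genes in FPKM (with 0.01 added, log axis) against paralog number, 1 panel per cluster. Each point is a mouse and each line joins the means of 3 mice of the Sham (grey), SCI (red) or FIPI (blue) group. The level rises to Hoxb8 (110 FPKM in Sham) and falls off after paralog 10.

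Summed over all members, Hox RNA stood at 442, 459 and 434 FPKM in the Sham mice, 283, 237 and 261 in the SCI mice and 303, 312 and 324 in the FIPI mice. The 3 groups did not overlap, with SCI the lowest and FIPI between the others. The Hoxb cluster went from 229 ± 9.07 in Sham to 110 ± 13.4 in SCI and 144 ± 6.43 in FIPI (SD, n = 3). The Hoxd cluster had 41.1 ± 2.66, 21 ± 2.67 and 29.0 ± 1.00 in the same order. The Hoxa cluster had 95.7 ± 3.32, 66.6 ± 6.43 and 72.8 ± 2.05. The Hoxc cluster differed the least, with 79.4 ± 3.32, 63.1 ± 1.59 and 67.2 ± 2.76. These sums are dominated by a few abundant genes and carry no test. In a bulk sample, fewer cells of a type and less RNA per cell cannot be told apart.

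**Figure D2:**
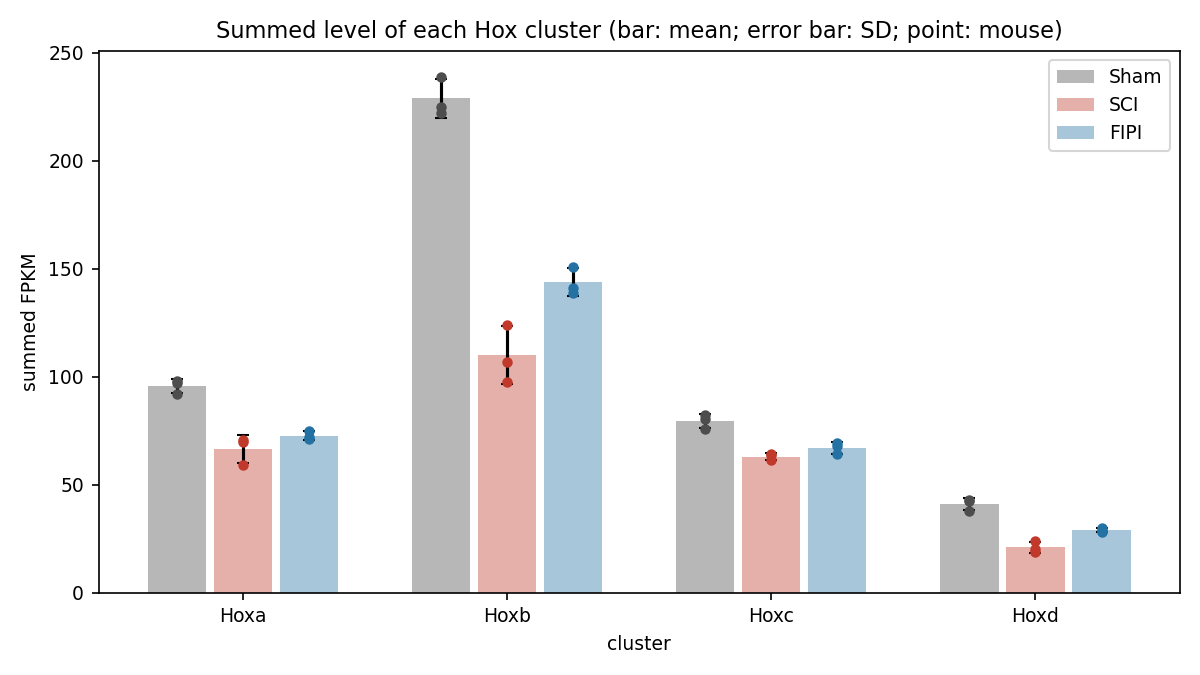
Summed FPKM of the genes of each Hox cluster. Bars are means of 3 mice, error bars are the SD and points are mice, for Sham (grey), SCI (red) and FIPI (blue). The Hoxb cluster stands at 229, 110 and 144 FPKM in the 3 groups and the Hoxc cluster at 79.4, 63.1 and 67.2.

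The share of the summed Hox FPKM that each range of paralogs took also differed between groups at the low and middle numbers. Paralogs 6 to 8 took 56.7% ± 1.06 in Sham, 51.6% ± 0.351 in SCI and 53.7% ± 0.466 in FIPI (SD, n = 3). Paralogs 4 and 5 took 12.6% ± 0.642, 16.0% ± 0.786 and 14.1% ± 0.114, and paralogs 1 to 3 took 2.47% ± 0.160, 3.51% ± 0.408 and 3.33% ± 0.193. Paralog 9 took 18.9% ± 0.259, 19.2% ± 0.365 and 18.9% ± 0.168, with overlapping mice. Paralogs 10 to 13 took 9.34% ± 0.815, 9.71% ± 0.473 and 9.77% to 10.4% in the FIPI mice, also overlapping. Paralogs 6 to 8 thus took less, and paralogs 4 and 5 more, of the Hox RNA in the injured groups. Hoxb8 weighs heavily in the range of 6 to 8. Its mean was 110 of the 445 FPKM of all Hox genes in Sham, 42.1 of 260 in SCI and 62.9 of 313 in FIPI. A fall in Hoxb8 also raises the shares of the other ranges. Shares without Hoxb8 were not computed, so a shift of the whole middle range is not shown. The order of paralogs 1 to 3 rests on genes that share exons. Over Hox genes with no exonic overlap, they took 0.423% in Sham, 0.294% in SCI and 0.310% in FIPI.

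The first comparison asks what contusion did to Hox RNA. Against Sham, 15 of the 31 Hox genes tested were lower in SCI and 0 were higher, where a call needs a log2 fold change of 0.5 or more in size together with an adjusted p under 0.05 (edgeR's quasi-likelihood test, Benjamini-Hochberg over 18699 genes). Without the adjustment, 20 were lower and 1 was higher at a p under 0.05, a level at which the share of all genes was not computed. At an adjusted p under 0.05 with no limit on the fold, 20 were lower and 0 higher. Of all 18699 genes, 6058 were lower and 6257 higher at that limit. DESeq2 and limma-voom also called 15 Hox genes lower and 0 higher. Of all genes tested 47.0% were called, with 22.5% of all genes tested lower and 24.4% higher. So 15 of 31 is close to the background as a share and lies wholly on the lower side. The median log2 fold change was -0.58 over the Hox genes and -0.00 over all genes. The SCI and Sham mice did not overlap in 20 Hox genes that were lower (background 35.0%) and in 2 that were higher (background 35.6%), against 70.5% of all genes in either direction. Offsets for GC content and exonic length lower the median of all genes to -0.14 and that of the Hox genes to -0.87. They turn the split over all genes from 4571 higher and 4209 lower to 3756 and 5248, and call 22 Hox genes lower.

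The Hoxb cluster had 6 of its 8 tested genes lower, and they were the neighbours Hoxb5 to Hoxb9 and Hoxb2. Hoxb8 (chr11:96281905-96285315, plus strand, GRCm38) had 108, 114 and 107 FPKM in the Sham mice, 50.2, 36.9 and 39.3 in the SCI mice and 61.0, 61.7 and 66.0 in the FIPI mice. All SCI mice lay below all FIPI mice, and those below all Sham mice. Its log2 fold change in SCI against Sham was -1.35 ± 0.093 (SE, adjusted p = 2.6e-08), which is 39.2% of the Sham level. Hoxb9, which acts in patterning of the thorax, had 41.6, 47.2 and 41.8 FPKM in Sham, 26.7, 22.1 and 23.2 in SCI and 29.4, 27.6 and 30.0 in FIPI (log2 fold change in SCI against Sham -0.83 ± 0.073, adjusted p = 1.22e-07). Hoxb6 had 36.7, 37.9 and 36.4 FPKM in Sham, 22.2, 17.5 and 21.9 in SCI and 22.2, 25.2 and 27.8 in FIPI (-0.82 ± 0.092, adjusted p = 2.49e-06). The FIPI mice of Hoxb6 overlapped the SCI mice and those of Hoxb9 did not.

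Hoxb7 had 17.6, 16.2 and 16.4 FPKM in Sham, 9.86, 7.75 and 8.37 in SCI and 10.8, 11.5 and 11.4 in FIPI (log2 fold change in SCI against Sham -0.92 ± 0.095, adjusted p = 6.67e-07). Hoxb5 had 12.1, 12.7 and 11.3 FPKM in Sham, 6.51, 5.48 and 6.09 in SCI and 7.64, 6.97 and 6.89 in FIPI (-0.97 ± 0.085, adjusted p = 1.22e-07). In both genes the 3 groups were apart. Hoxb2, a gene of hindbrain segments, was scarce, with 0.455, 0.633 and 0.561 FPKM in Sham, 0.250, 0.327 and 0.263 in SCI and 0.436, 0.475 and 0.448 in FIPI (-0.94 ± 0.243, adjusted p = 0.00327). Hoxb4 and Hoxb3, which lie between Hoxb5 and Hoxb2, were not called, though both were called lower with the GC and length offsets. Hoxb3 had 3.20, 3.53 and 3.34 FPKM in Sham and 2.44, 3.01 and 2.57 in SCI, a log2 fold change of -0.30 ± 0.107 (adjusted p = 0.0229) that misses the limit on the fold.

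The start regions of Hoxb8 and Hoxb4 are shown since these genes of 1 cluster differed in their calls without the GC and length offsets, and that of Hoxa2 since it was the Hox gene called higher in FIPI mice than in Sham mice. Each run gives the 250 bases before and 50 after the start in RefSeq (GRCm38.p6). Capitals mark matches, on either strand, to 4 motifs that were searched, which are the TATA box TATAAA, the CCAAT box, TGATTNAT (a joint site of Hox and Pbx proteins) and TTTATNG (a form close to the Cdx site, which can overlap TATAAA read on the other strand).
Hoxb8, chr11:96281655-96281954, plus strand: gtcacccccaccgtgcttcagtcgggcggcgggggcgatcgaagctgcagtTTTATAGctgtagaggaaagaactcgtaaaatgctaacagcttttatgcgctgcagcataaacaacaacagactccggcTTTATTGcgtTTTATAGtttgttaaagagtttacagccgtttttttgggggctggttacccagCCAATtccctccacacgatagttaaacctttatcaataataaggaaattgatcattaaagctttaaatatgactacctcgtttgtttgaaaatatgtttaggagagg
Hoxb4, chr11:96318017-96318316, plus strand: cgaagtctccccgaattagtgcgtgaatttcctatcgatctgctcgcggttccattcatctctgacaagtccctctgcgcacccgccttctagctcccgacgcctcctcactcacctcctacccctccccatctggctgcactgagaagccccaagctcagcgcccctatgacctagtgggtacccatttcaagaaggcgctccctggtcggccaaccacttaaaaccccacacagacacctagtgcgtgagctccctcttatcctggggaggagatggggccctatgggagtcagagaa
Hoxa2, chr6:52164782-52165081, minus strand: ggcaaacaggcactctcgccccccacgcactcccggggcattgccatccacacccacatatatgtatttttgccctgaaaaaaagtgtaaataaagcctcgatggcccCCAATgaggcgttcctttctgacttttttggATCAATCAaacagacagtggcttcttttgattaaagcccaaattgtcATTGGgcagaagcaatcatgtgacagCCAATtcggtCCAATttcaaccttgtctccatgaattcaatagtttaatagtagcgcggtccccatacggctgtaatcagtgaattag
The Hoxb8 region holds 3 matches to TTTATNG, 2 of which overlap TATAAA on the minus strand, and 1 CCAAT box. The Hoxa2 region holds 4 CCAAT boxes and 1 joint Hox and Pbx site, and the Hoxb4 region holds no match. RefSeq start regions were on hand for 22 of the 39 Hox genes (24 starts). CCAAT stood in 62.5% of these and in 37.4% of all 32851 start regions, TGATTNAT in 8.3% and 3.2%, TTTATNG in 8.3% and 10.9%, and TATAAA in 16.7% and 13.6%. A match is a run of letters and says nothing of binding.

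The Hoxd cluster had 5 of its 6 tested genes lower in SCI. Hoxd1, a gene with a known part in the wiring of pain-sensing neurons, had 1.19, 1.07 and 2.10 FPKM in the Sham mice, 0.579, 0.459 and 0.627 in SCI and 0.504, 0.730 and 0.861 in FIPI (log2 fold change in SCI against Sham -1.36 ± 0.307, adjusted p = 0.00119). Sham replicate 3 was the highest of the Sham mice, and both injured groups lay below all of them. Hoxd3 had the largest fold change of the called Hox genes, with 1.23, 1.13 and 1.43 FPKM in Sham, 0.356, 0.388 and 0.507 in SCI and 0.416, 0.710 and 0.574 in FIPI (-1.57 ± 0.220, adjusted p = 1.68e-05). Hoxd4 had 2.35, 3.10 and 1.91 FPKM in Sham, 1.07, 1.31 and 1.29 in SCI and 1.21, 1.05 and 1.15 in FIPI (-0.97 ± 0.181, adjusted p = 0.000249). Hoxd3 and Hoxd4 share exons with each other and with Gm28230, so reads could count for any of them.

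Hoxd8 and Hoxd9 were more abundant and free of such overlap. Hoxd8 had 15.5, 17.9 and 15.9 FPKM in Sham, 9.72, 8.82 and 8.02 in SCI and 13, 12.6 and 11.3 in FIPI, with the 3 groups apart (log2 fold change in SCI against Sham -0.86 ± 0.086, adjusted p = 4.92e-07). Hoxd9 had 18.6, 17.0 and 15.7 FPKM in Sham, 10.3, 6.88 and 8.49 in SCI and 10.3, 12.2 and 12.1 in FIPI (-0.97 ± 0.125, adjusted p = 1.33e-05). Both injured groups lay below Sham. The lowest FIPI mouse and the highest SCI mouse of Hoxd9 were level at 10.3 FPKM.

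In the Hoxa cluster the lower calls were Hoxa7, Hoxa9 and Hoxa10. Hoxa7 had 26.9, 26.3 and 26.1 FPKM in Sham, 18.6, 15.3 and 17.0 in SCI and 19.0, 19.7 and 20.2 in FIPI (log2 fold change in SCI against Sham -0.61 ± 0.069, adjusted p = 1.69e-06). Hoxa9 had 13.3, 13.9 and 13.8 FPKM in Sham, 8.84, 7.68 and 7.68 in SCI and 8.49, 9.13 and 9.38 in FIPI (-0.73 ± 0.067, adjusted p = 2.06e-07). Hoxa10, a gene of lumbar motor neurons, had 13.7, 14.3 and 12.2 FPKM in Sham, 7.32, 6.58 and 6.75 in SCI and 7.41, 8.11 and 8.17 in FIPI (-0.93 ± 0.078, adjusted p = 7.17e-08). In all 3 genes every injured mouse lay below every Sham mouse.

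Hoxa2 to Hoxa6 were not called in this comparison, though Hoxa4, Hoxa5 (-0.61) and Hoxa6 were called lower with the GC and length offsets. Hoxa5, a gene of the neck segments that hold the phrenic motor neurons, had 22.8, 23.5 and 20.6 FPKM in Sham, 18.5, 14.4 and 20.1 in SCI and 16.8, 17.4 and 19.6 in FIPI, and its log2 fold change in SCI against Sham of -0.30 ± 0.105 (adjusted p = 0.0207) misses the limit on the fold. Hoxa2, a gene of hindbrain segments, had 1.84, 1.67 and 1.43 FPKM in Sham, 2.08, 1.97 and 2.09 in SCI and 2.22, 2.90 and 2.85 in FIPI, with the groups apart in rising order. Its value in SCI against Sham was 0.35 ± 0.173 (adjusted p = 0.0927) and was not called.

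The Hoxc cluster had 1 of its 7 tested genes called. Hoxc10 had 26.5, 25.7 and 24.0 FPKM in Sham, 17.8, 16.3 and 15.6 in SCI and 18.6, 20.2 and 20.02 in FIPI (log2 fold change in SCI against Sham -0.58 ± 0.071, adjusted p = 3.55e-06). Hoxc8 had a fold change of -0.42 ± 0.071 (adjusted p = 0.000107), under the limit on the fold. Hoxc9, which sets the motor columns of the thoracic cord, had 8.80, 9.72 and 10.7 FPKM in Sham and 9.52, 9.12 and 9.66 in SCI, a log2 fold change of -0.02 ± 0.091 (adjusted p = 0.86). Hoxc6, a gene of brachial motor neurons, had 11.4, 13.1 and 15.3 FPKM in Sham and 12.8, 11.8 and 14.2 in SCI, a fold change of -0.01 ± 0.111 (adjusted p = 0.936). Both groups overlapped in these 2 genes. Hoxc4 had 7.56, 9.58 and 8.19 FPKM in Sham and 7.27, 5.88 and 6.71 in SCI, a fold change of -0.32 ± 0.118 (adjusted p = 0.0257). With offsets for GC content and length, Hoxc4 and Hoxc8 were called lower as well, at -0.69 and -0.58, against -0.14 for the median of all genes. Hoxc6 and Hoxc9 then stood at -0.37 and -0.40, under the limit on the fold.

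**Figure D3:**
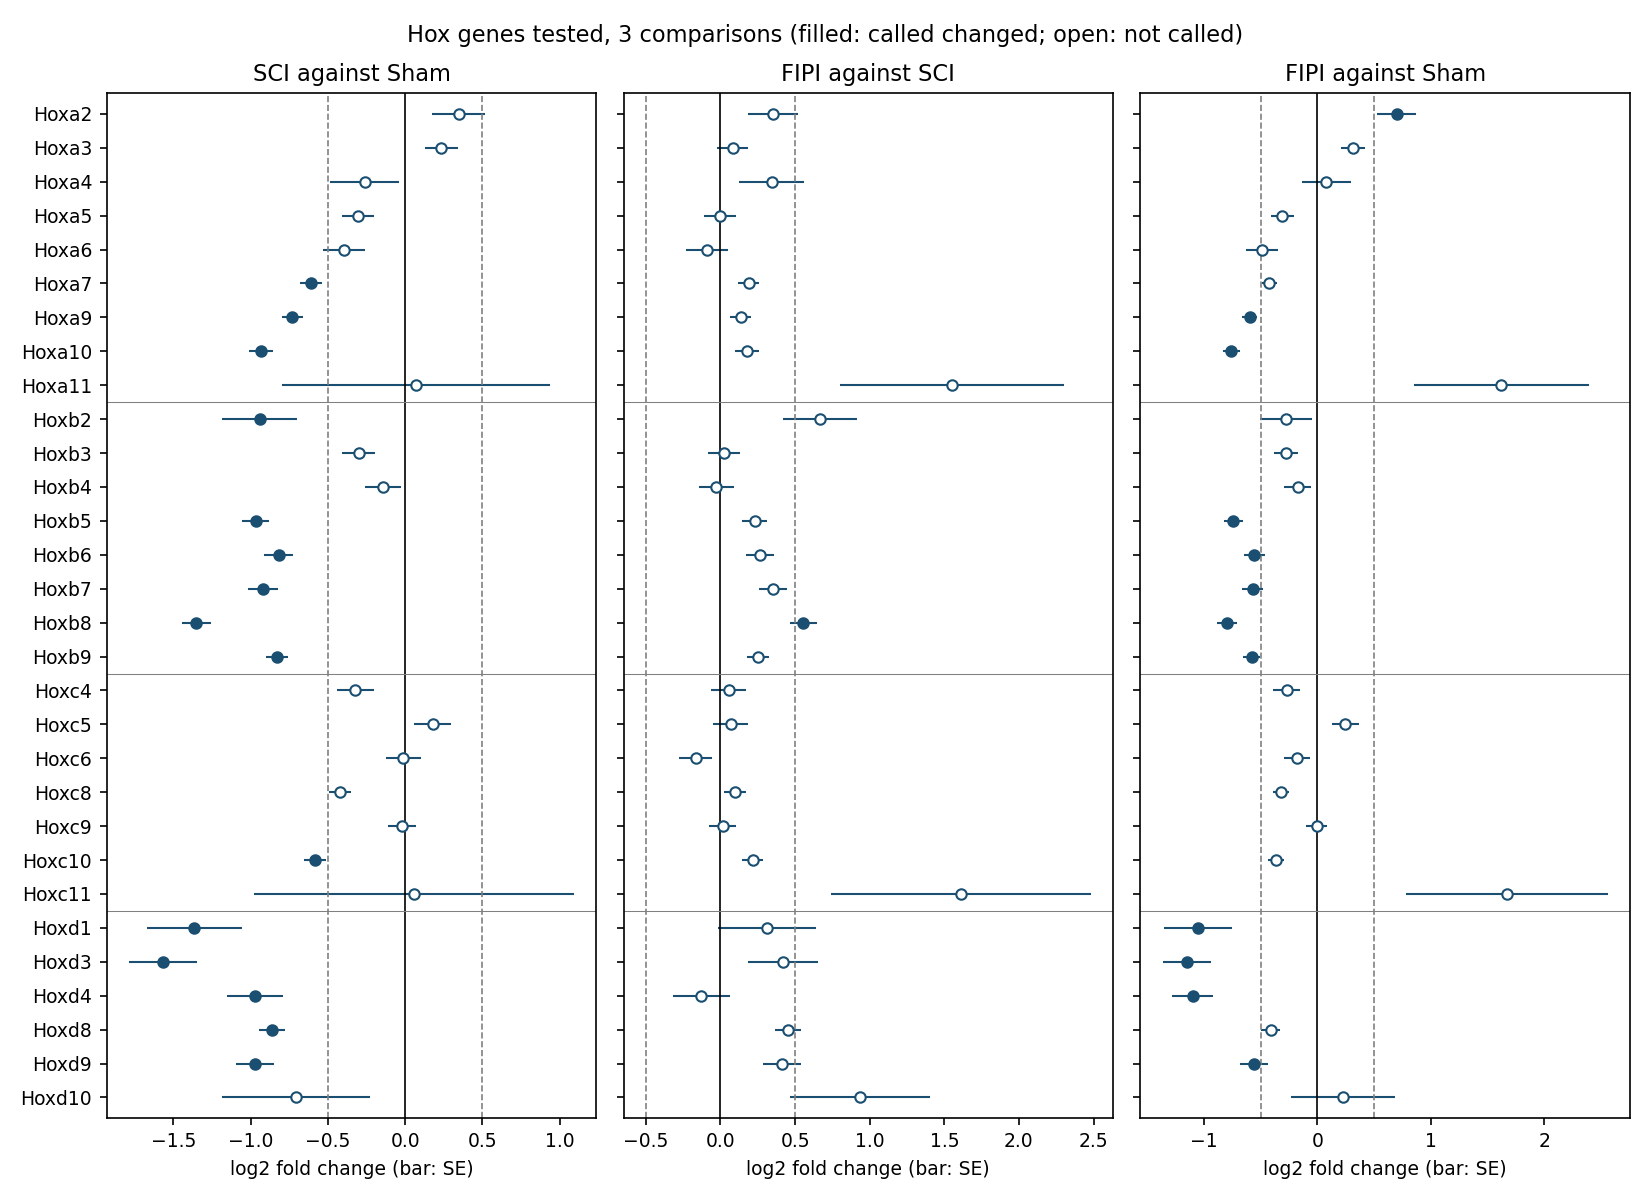
Log2 fold change of Hox genes tested, ordered by cluster and paralog number, in SCI against Sham, FIPI against SCI and FIPI against Sham. Bars are standard errors of the edgeR fit, filled points are called (fold change past the limit of 0.5 and adjusted p under 0.05) and dashed lines mark 0.5. In SCI against Sham 15 points are filled, all to the left, and in FIPI against SCI the 1 filled point is Hoxb8.

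An exact two-sided permutation test on the log2 CPM of each gene gave p = 0.1 for each of the 15 genes, the smallest that 3 mice against 3 can give. Across the 31 genes the log2 fold change in SCI against Sham had a Pearson r of -0.06 and a Spearman rho of -0.07 with paralog number. With the log2 mean Sham FPKM it had -0.36 and -0.34. These values depend on the set of genes. Over the 25 genes with exonic overlap of at most 25% they were -0.265 and -0.284 with paralog number, and -0.541 and -0.505 with level. Over the 27 genes with a mean of at least 1 FPKM in Sham they were -0.197 and -0.226, and -0.225 and -0.228. The genes share the same 6 libraries and are not independent, so these are descriptions only.

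A ratio of paralogs within a mouse does not depend on its depth. The pairs below were chosen after the values were seen, so their ratios carry no test. Hoxb9 to Hoxc9 in FPKM was 4.72, 4.85 and 3.90 in the Sham mice, 2.80, 2.42 and 2.40 in the SCI mice and 3.31, 2.88 and 2.84 in the FIPI mice. Hoxa9 to Hoxc9 averaged 1.41 ± 0.113, 0.855 ± 0.0682 and 0.932 ± 0.0360 in the same order of groups (SD, n = 3), and Hoxd9 to Hoxc9 averaged 1.77 ± 0.322, 0.903 ± 0.163 and 1.19 ± 0.0674. So at paralog 9 the Hoxa, Hoxb and Hoxd members each lay lower against Hoxc9 in all 6 injured mice than in all 3 Sham mice.

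The same held at other numbers. Hoxb8 to Hoxc8 averaged 5.53 ± 0.498, 2.90 ± 0.620 and 3.96 ± 0.253, Hoxb6 to Hoxc6 2.82 ± 0.422, 1.59 ± 0.133 and 2.14 ± 0.0420, and Hoxb5 to Hoxc5 4.95 ± 0.439, 2.22 ± 0.230 and 2.48 ± 0.112. Within the Hoxb cluster, Hoxb8 to Hoxb4 was 20.1, 17.0 and 19.4 in Sham, 8.67, 8.34 and 7.24 in SCI and 12.5, 12.3 and 11.6 in FIPI, with the 3 groups apart. Hoxa10 to Hoxc10 moved less, from 0.528 ± 0.0246 to 0.415 ± 0.0142 and 0.403 ± 0.00450.

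**Figure D4:**
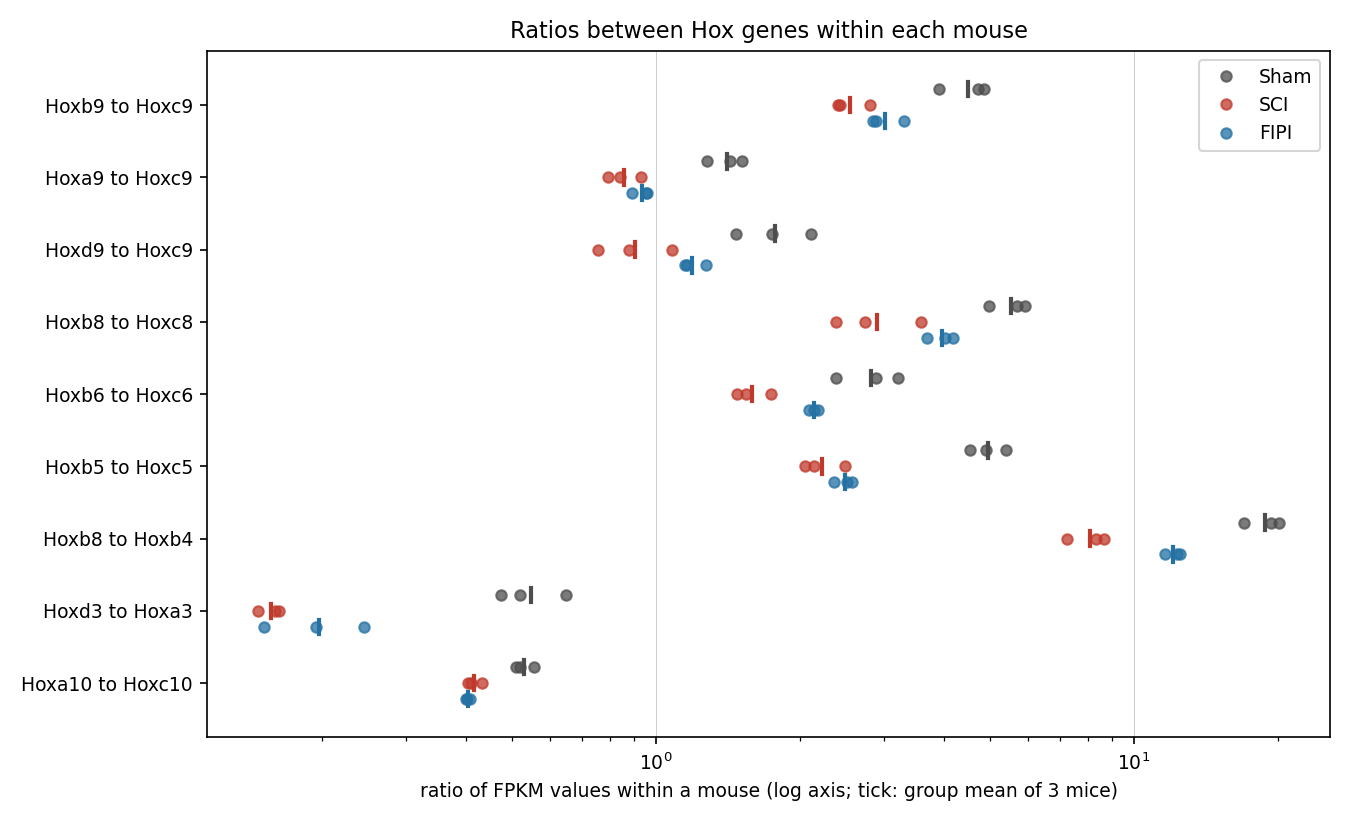
Ratio of the FPKM values of 2 Hox genes within each mouse (log axis) for 9 pairs chosen after the values were seen. Points are mice and upright ticks are means of 3 mice, for Sham (grey), SCI (red) and FIPI (blue). For Hoxb8 to Hoxb4 the means are 18.8, 8.09 and 12.1, and the Sham mice lie apart from the injured mice in every pair.

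Markers of other cells moved in the same comparison. All 10 neuron markers were lower in SCI (median log2 fold change -1.41), and their summed level was 8594 to 9660 CPM in Sham, 2695 to 3768 in SCI and 4395 to 5172 in FIPI. Of 6 motor neuron markers 5 were lower, and their sum was 183 to 255 CPM, 81.9 to 131 and 125 to 174. All 6 fibroblast markers were higher (sum 303 to 897 CPM, 8859 to 12010 and 8177 to 10640), as were 7 of 8 markers of microglia and macrophages (315 to 419, 1620 to 1940 and 1317 to 1500) and all 5 markers of dividing cells. The share of counts from mitochondrial genes was 4.9% to 5.49% in Sham, 2.96% to 3.22% in SCI and 3.21% to 3.54% in FIPI. Of the other cells, 3 of 6 astrocyte markers were higher and 1 lower, and 3 of 6 oligodendrocyte and 1 of 5 ependymal markers were lower. Higher were 4 of 6 endothelial markers, 1 of 5 Schwann cell markers and the 1 tested marker of sensory neurons. Lymphocyte markers were lower in 2 of 4 tested, and marrow markers higher in 1 and lower in 2 of 6. Bone markers were higher in 1 and lower in 1 of 4, and 0 of 6 muscle markers were called. Over all genes 24.4% were higher and 22.5% lower, so the ependymal and Schwann cell counts lie near the background. The part of these shifts in the Hox values was not tested.

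The second comparison asks what FIPI did on top of the injury. Hoxb8 was the 1 Hox gene called of 31 tested, against 3.06% of all genes (2.36% higher). That background depends on single mice, with 572 genes called in all, 1038 without SCI replicate 1, 240 without SCI replicate 3 and 189 without FIPI replicate 2. It was higher in FIPI than in SCI with a log2 fold change of 0.56 ± 0.092 (SE, adjusted p = 0.00505), in mice that did not overlap. Without SCI replicate 2, its lowest SCI mouse, the value is 0.47 (adjusted p = 0.0205), under the limit on the fold, and 0 Hox genes are called. Without SCI replicate 1, 3 are called, with Hoxd8 at 0.53 and Hoxd9 at 0.57 beside Hoxb8.

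Other Hox genes had values above 0 without being called. Hoxd8 had 0.45 ± 0.087 (adjusted p = 0.00806), Hoxb7 0.35 ± 0.096 (adjusted p = 0.0336) and Hoxb9 0.25 ± 0.073 (adjusted p = 0.044), each past the limit on the adjusted p and under that on the fold. Hoxb2 had 0.67 ± 0.247 (adjusted p = 0.103) and Hoxd9 0.41 ± 0.126 (adjusted p = 0.0583). The log2 fold change was above 0 in 25 of 31 Hox genes with a median of 0.22, and the median of all genes was -0.00. In 12 of 31 (38.7%) every FIPI mouse lay above every SCI mouse, against 15.7% of all genes (30.2% in either direction). By edgeR 0 Hox genes were called lower. At an unadjusted p under 0.05, 0 were lower and 11 higher, a level at which the share of all genes was not computed. At an adjusted p under 0.05 with no limit on the fold, 4 were higher and 0 lower. Of all 18699 genes, 1130 were higher and 670 lower at that limit. DESeq2 and limma-voom called 1 Hox gene higher and 0 lower.

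Of the neuron markers 5 of 10 were higher in FIPI than in SCI, against 2.36% of all genes, with a median of 0.55. The 6 motor neuron markers had a median of 0.48, and 0 were called. Among the other cell type lists 1 of 4 bone markers was higher (median 1.26), and 0 were called in the rest. Medians of that rest ran from -0.40 (dividing cells) and -0.29 (microglia and macrophages) to 0.42 (marrow progenitors and granulocyte precursors). The part of these markers in the Hox values was not tested. The same SCI mice stand in both comparisons, so a high value in one and a low value in the other are not separate evidence.

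Paralogs 10 and 11 mark the tail-side border of the pattern, and there the Sham and SCI mice spread widely within their groups. Hoxd10, a gene of lumbar motor neurons, had 145, 94 and 39 counts in the Sham mice, 89, 45 and 49 in the SCI mice and 110, 116 and 115 in the FIPI mice. Hoxa11 had 26, 2 and 2 counts in Sham, 15, 5 and 14 in SCI and 24, 42 and 32 in FIPI. Hoxc11 had 8, 11 and 0 counts in Sham, 13, 0 and 8 in SCI and 27, 26 and 10 in FIPI. Hoxd11, untested, had 10, 1 and 3, then 2, 2 and 1, then 5, 8 and 3. Sham replicate 1 had the most counts of its group in Hoxd10, Hoxa11 and Hoxd11, and Sham replicate 3 the fewest in Hoxd10 and Hoxc11.

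The FIPI mice had the highest means in these genes, and whether a gene was called against SCI depended on the processing. Hoxa11 had a log2 fold change of 1.55 ± 0.752 in FIPI against SCI (adjusted p = 0.237), Hoxd10 0.94 ± 0.472 (adjusted p = 0.268) and Hoxc11 1.61 ± 0.870 (adjusted p = 0.288). With no filter on low counts Hoxa11 (adjusted p = 0.00508) and Hoxc11 (adjusted p = 0.0213) were called higher, and in a fit of only the FIPI and SCI mice Hoxa11 (adjusted p = 0.0358) and Hoxd10 (adjusted p = 0.0365) were. Counts of paralogs 11 to 13 together were 48, 17 and 6 in Sham, 33, 7 and 25 in SCI and 56, 79 and 46 in FIPI. For SCI against Sham the values were 0.07 ± 0.869 for Hoxa11, 0.06 ± 1.034 for Hoxc11 and -0.71 ± 0.479 for Hoxd10 (adjusted p = 0.948, 0.964 and 0.225). Hoxa11 rests on Sham replicate 1. Without that mouse it is called higher in SCI than in Sham (2.41, adjusted p = 0.0095), in FIPI than in SCI (1.55, adjusted p = 0.0331) and in FIPI than in Sham (3.96, adjusted p = 0.000124). Without Sham replicate 3, Hoxd10 is called lower in SCI than in Sham (-1.10, adjusted p = 0.00594) and higher in FIPI than in SCI (0.94, adjusted p = 0.0487). Hoxc10 and Hoxa10, abundant genes on the near side of the border, were tight within each group.

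**Figure D5:**
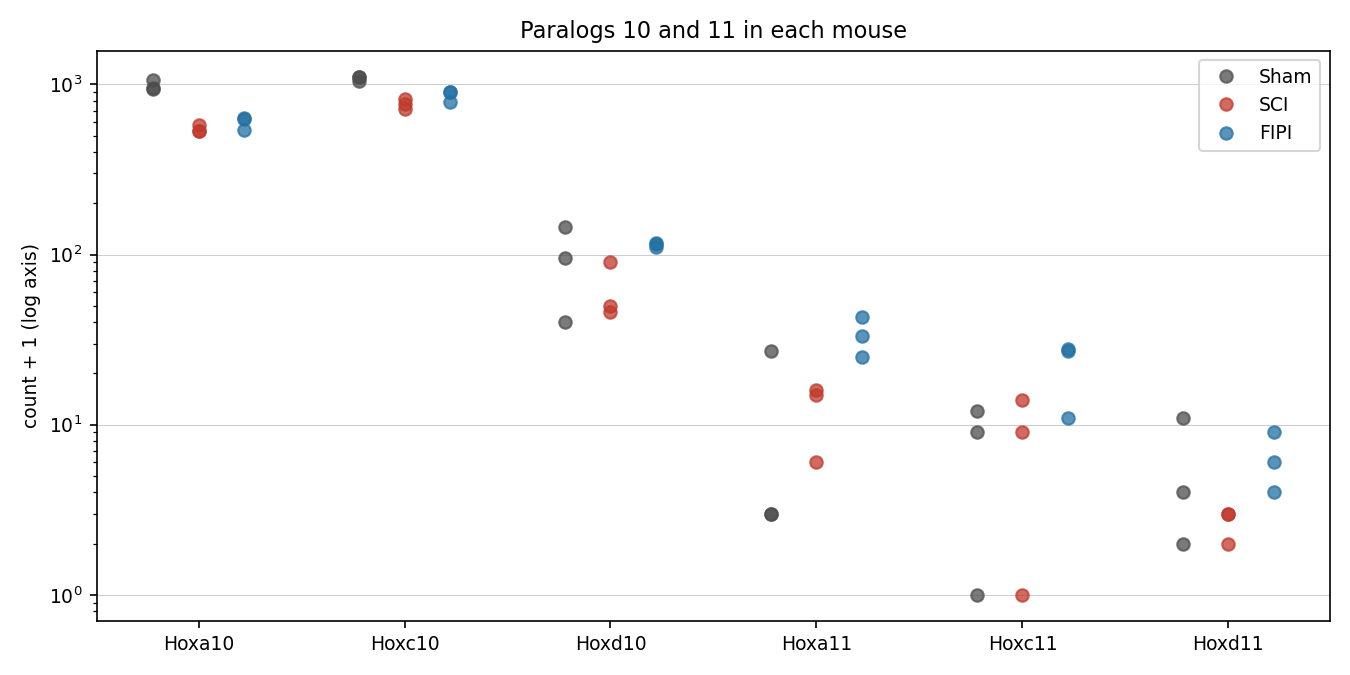
Counts (with 1 added, log axis) of the 6 Hox genes of paralogs 10 and 11 in each mouse of the Sham (grey), SCI (red) and FIPI (blue) groups. Hoxa10 and Hoxc10 are tight within each group, and the Sham mice of Hoxd10 spread from 39 to 145 counts and those of Hoxa11 from 2 to 26.

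The third comparison asks what difference from the uninjured cord remained under FIPI. Of 31 Hox genes tested, 12 were called, against 38.1% of all genes, and 11 of them were lower (background 17.0%) and 1 was higher (background 21.2%). With offsets for GC content and length, all genes split from 3957 higher and 3171 lower to 3099 and 4385, their median goes to -0.15, and 21 Hox genes are lower. The lower genes were Hoxa9, Hoxa10, Hoxb5 to Hoxb9, Hoxd1, Hoxd3, Hoxd4 and Hoxd9, all of them among the 15 of SCI against Sham, with which the Sham mice are shared. Their log2 fold changes ran from -0.56 for Hoxb6 (SE 0.091) to -1.15 for Hoxd3 (SE 0.214), and Hoxb8 stood at -0.80 ± 0.091 (adjusted p = 5.8e-06), or 57.6% of the Sham level. The FIPI and Sham mice did not overlap in 18 lower and 2 higher Hox genes (backgrounds 32.9% and 33.4%, or 66.2% in either direction).

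Hoxa7 (-0.42), Hoxd8 (-0.41), Hoxc10 (-0.37) and Hoxb2 (-0.27), which were lower in SCI than in Sham, were not called in FIPI against Sham. Hoxa7, Hoxd8 and Hoxc10 missed only the limit on the fold (adjusted p = 8.86e-05, 0.000729 and 0.000377). All 4 were called lower with the GC and length offsets, at -0.74, -0.77, -0.71 and -0.59 in the order above. The difference between the comparisons is the FIPI against SCI value of each, and that was not called for any of the 4. Hoxd9 leaves the call without Sham replicate 1 (-0.50) or FIPI replicate 1 (-0.49), Hoxb6 without FIPI replicate 1 (-0.48) and Hoxd1 without Sham replicate 3 (-0.67, adjusted p = 0.067). Hoxa2 was the 1 gene higher, with 0.70 ± 0.171 (adjusted p = 0.00263), and leaves the call with the GC and length offsets (0.41). With no filter on low counts Hoxa11 (1.64, adjusted p = 0.000664) and Hoxc11 (1.69, adjusted p = 0.00393) were higher as well, and limma-voom called Hoxa11 higher (2.58, adjusted p = 0.00731).

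Hoxb8 is also the classic target of a microRNA of its own clusters, miR-196a, whose hairpins lie between Hoxb9 and Hoxb13 on chromosome 11 and between Hoxc10 and Hoxc9 on chromosome 15. Mature microRNAs are not measured by libraries of polyadenylated RNA. The pair is shown because Hoxb8 had the highest level and was the Hox gene called in all 3 comparisons. The first line is the mature RefSeq sequence with its seed, bases 2 to 8, in capitals. The second is the site in the 3′ UTR of Hoxb8 (chr11:96284888-96284909, plus strand, GRCm38). Its capitals mark bases complementary to the microRNA (A with U, G with C).
mmu-miR-196a-5p: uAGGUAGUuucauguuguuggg
Hoxb8 site: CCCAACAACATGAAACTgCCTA
Of the 22 bases of the site 21 are complementary, and the other, a G opposite a U of the seed, can form a G:U wobble pair. A full match to the miR-196 seed, ACTACCT, stands in the 3′ UTR of 8 of 39 Hox genes (20.5%, against 6.3% of 21100 genes), which are Hoxa4, Hoxa5, Hoxa7, Hoxa9, Hoxb1, Hoxb6, Hoxb7 and Hoxc8. For the seed of miR-10, the other microRNA family of the clusters, the match ACAGGGT stands in 4 of 39 (10.3%, against 12.6%).

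The partners and regulators of Hox genes did not move as one, and their counts in SCI against Sham stand beside backgrounds of 24.4% higher and 22.5% lower. Of 9 TALE genes, which code for the Pbx, Meis and Pknox proteins that bind DNA with Hox proteins, 2 were lower in SCI than in Sham, Meis2 (-1.23 ± 0.099, adjusted p = 9.68e-08) and Pbx4 (-0.53 ± 0.132, adjusted p = 0.00248). Of 14 tested genes of the retinoic acid, Cdx and Gdf11 list, whose signals set Hox domains in the embryo, 8 were higher and 1 was lower. Among the higher ones were Aldh1a3, which makes retinoic acid (3.28, adjusted p = 5.41e-09), and Crabp2, which carries retinoic acid (1.98, adjusted p = 0.0112). Crabp1, also a carrier of retinoic acid, was lower (-1.48, adjusted p = 1.88e-06). Cdx1, Cdx2 and Cdx4 had too few counts to be tested.

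Of 20 Polycomb and trithorax genes, which keep Hox clusters off or on, 4 were higher and 3 were lower, shares below those backgrounds. Ezh2, the enzyme that writes the repressive mark, was higher (1.11, adjusted p = 1.58e-07), as were Cbx2 (1.04, adjusted p = 4.74e-05) and Rnf2 (0.84, adjusted p = 6.12e-06), and Cbx7 was lower (-0.89, adjusted p = 3.45e-07). Of 23 spinal interneuron factors 19 were lower and 1 was higher (Gata2). Their median was -1.37 against -0.58 for the Hox genes, led by Evx1 (-2.26), Lhx9 (-2.06), Dmrt3 (-2.02) and Pou4f1 (-1.79).

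In FIPI against SCI, 2.36% of all genes tested were higher and 0.695% lower. Of the 9 TALE genes and the 20 Polycomb and trithorax genes, 0 were called. Crabp1 (0.80, adjusted p = 0.0127) was called in the retinoic acid list and 6 of 23 in the interneuron list, of which 5 were higher. Those 5 were Pou4f1 (0.86), Lbx1 (0.78), Pax8 (0.78), Lmx1b (0.67) and Gbx1 (0.62), and the lower one was Gata2 (-0.52).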

How the data were processed

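The members and lists were chosen with earlier results of these data known. The authors removed low-quality and adapter sequence, and deposited whole-number counts per gene. The submitters' processing notes name GRCm38 and R 4.2.3, and the aligner, counter, annotation and use of strand in counting are not given in the sources used here. Symbols, positions and exonic lengths came from GENCODE M21, which holds 52403 of the 52550 identifiers. All 9 columns were used.

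Counts were fitted in R 4.3.3 with edgeR 4.0.16 (TMM factors, filterByExpr by group, robust quasi-likelihood, 1 mean per group over all 9 mice, common dispersion 0.00866), and a call needed a log2 fold change of 0.5 or more in size and a Benjamini-Hochberg adjusted p under 0.05. The procedure was tested on simulated data. FPKM used the union of exons. CPM used TMM factors, with a prior count of 2 on the log scale. Alternatives were DESeq2 1.42.0, limma-voom 3.58.1 and those named in the closing section. Named by rule were members called in any comparison and the highest in Sham at each paralog number, of the other cluster genes the 3 with the highest mean CPM, and of each list up to 4 called genes. A member and a list gene are not reported by name here. Hoxb4, Hoxc6, Hoxc8, Hoxc9, Hoxc11 and Hoxd10, the called other genes of the clusters, Haglr's counts, Gata2 and the genes called in FIPI against SCI were named after their values were seen. Replicates differed beyond sampling noise (chi-square per gene 6.27 to 12.1). The labels do not say that they came from separate animals, so p-values measure only the spread between these samples, which may be technical.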

Additional observations from a re-analysis of the deposited data

How the results depend on the processing

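All 15 genes lower in SCI than in Sham were called in all 20 alternatives, and the number of Hox genes called was 15 except with no limit on the fold change (20), with offsets for GC content and length (22), with these and the replicate block (23), and with 1 mouse left out (15 to 16). In FIPI against SCI the number of Hox genes called was 3 with no filter on low counts, 3 in a fit of only the 2 groups compared, 4 with no limit on the fold change, and 0 to 3 with 1 mouse left out (0 without SCI replicate 2, 3 without SCI replicate 1, and 2 without Sham replicate 1, Sham replicate 3 or FIPI replicate 3). In FIPI against Sham it was 21 with the GC and length offsets and 21 with these and the replicate block. It was 20 with no limit on the fold change, 14 with no filter, and 13 by limma-voom or with upper-quartile factors. With 1 mouse left out it was 11 to 13. The cause of the shift under the offsets was not tested. The replicate block alone gave 15, 1 and 12 calls, as without it. Mice with the same number deviated together by r of -0.07 to 0.11 over all genes tested. Noise in single genes enters these values, so they cannot settle whether the numbers pair the mice. The block alone changed no Hox call, and with the offsets it added Hoxd10 in SCI against Sham (-0.89, adjusted p = 0.044).

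Values near 0 changed sign in SCI against Sham. Hoxa11 was -0.31 and -0.19 with the offsets without and with the block, and -0.45 to 2.41 with 1 mouse left out. Hoxc11 was -0.006 with upper-quartile factors, -0.33 and -0.29 with the offsets, and -0.73 to 0.68 with 1 mouse left out. With no filter Hoxc6 was 0.01 and Hoxc9 0.001, and with 1 mouse left out they were -0.11 to 0.11 and -0.086 to 0.063. Their lowest values were with the offsets, -0.37 and -0.40. In FIPI against Sham, Hoxd10 was -0.017 with the offsets and -0.17 to 0.78 with 1 mouse left out.

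The shares by paralog range, in the order Sham, SCI and FIPI, depend on the scale. In CPM, paralogs 1 to 3 took 3.72%, 5.49% and 5.06%, paralogs 4 and 5 11.6%, 14.6% and 12.9%, paralogs 6 to 8 54.0%, 48.6% and 51.2%, paralog 9 22%, 22.5% and 21.9%, and paralogs 10 to 13 8.79% in SCI and 8.96% in FIPI. With the longest transcript as length, paralogs 1 to 3 took 3.19%, 4.68% and 4.41%, paralogs 4 and 5 11.8%, 14.7% and 13.1%, paralogs 6 to 8 52.3% in SCI, and paralogs 10 to 13 9.22% in SCI and 9.57% in FIPI. Over Hox genes with no exonic overlap, they were 0.423%, 0.294% and 0.310%, 10.5%, 15.0% and 12.6%, 64.9%, 59.7% and 62.4%, 20.2%, 21.4% and 21.1%, and 3.91%, 3.60% and 3.52% from the lowest range to the highest, so the order of Sham and SCI at paralogs 1 to 3 was turned round there. The counts of paralogs 11 to 13, at most 42 for a gene in a mouse, limit the precision there.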

Other observations

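The 4 clusters hold 46 further annotated genes between their outermost Hox genes, mostly antisense and other noncoding RNAs, of which 16 could be tested. The most abundant were Gm53 with a mean of 15.6 CPM over the 9 mice, Hoxaas2 with 6.02 and Haglr with 5.42. In SCI against Sham 6 of the 16 were lower by edgeR and 0 higher, against 22.5% lower and 24.4% higher over all genes tested (47.0% in either direction). The 6 were Gm28230 (log2 fold change -1.29), Haglr (-1.10), Gm14426 (-0.87), Gm14424 (-0.84), Hoxaas3 (-0.77) and Hoxd3os1 (-0.57), and 5 of these 6 lie in the Hoxd cluster. In FIPI against SCI 0 of the 16 were called (background 3.06%). In FIPI against Sham 4 were lower and 0 higher (backgrounds 17.0% and 21.2%). Haglr, an antisense RNA next to Hoxd3 and Hoxd1, had 156, 198 and 177 counts in the Sham mice, 87, 95 and 79 in the SCI mice and 108, 118 and 112 in the FIPI mice, with the groups apart. Hoxaas2, which overlaps Hoxa3, had 122 to 138 counts in Sham, 129 to 142 in SCI and 138 to 175 in FIPI (log2 fold change in SCI against Sham -0.01, adjusted p = 0.952). Where such genes share exons with a Hox gene, their reads cannot be told apart.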
